A study of Mus musculus with 2 samples.

Results

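The collagen and laminin chain genes of E10.0 mouse endothelial and early blood cells are described here. They were every row of the count tables whose symbol is Col, a number, a and a number, or Lam, the letter a, b or c and a digit. That rule took 44 collagen chains and 11 laminin chains, 55 of the 24543 genes listed, without regard to their values. At least 1 UMI (a unique molecular identifier, counted as 1 RNA molecule) was found for 52 of the 55.

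CD31+CD44+ cells had been sorted from the caudal part of embryos on embryonic day 10 and read by droplet single-cell RNA-seq. The control cells came from littermates carrying Nupr1 fl/fl or Nupr1 fl/+ without Cre, labelled WT. The cKO cells came from Vec-Cre;Nupr1 fl/fl embryos, in which Cre is driven by the Cdh5 (VE-cadherin) promoter and so acts in endothelium and in the blood cells that descend from it. Each genotype was marked with its own oligo-barcoded streptavidin (a hashtag) and both were run in 1 droplet lane per replicate, with 2 replicates on a C57BL/6 background, and the number of embryos behind a hashtag is not given in the sources used here.

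Collagens are trimers of alpha chains, and laminins are cross-shaped trimers of 1 alpha, 1 beta and 1 gamma chain. Type IV collagen and laminin each form a sheet, and together with nidogens and perlecan they make the basement membrane on which endothelial cells sit. Endothelium of developing vessels is known for its alpha-1 and alpha-2 chains of type IV collagen and for laminins built on the alpha-4 or alpha-5 chain. During the endothelial-to-hematopoietic transition (EHT), cells of the arterial wall leave that layer and become free blood progenitors.

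The tables held 2139 cells and no cell types, so cells were grouped by the markers named for each type. Gja5 at 100 CPM or more (UMIs scaled to a common total per cell or sum) marked 434 arterial cells, and Kitl with Esm1 marked 66 cells of the vascular plexus. Nr2f2 with Aplnr marked 69 venous cells, Gfi1 with Neurl3 marked 122 EHT cells, and Ptprc with Myb marked 139 progenitors. C1qa marked 620 macrophages and Gp9 marked 215 megakaryocytes. The arterial group is the Gja5 cells without the Kitl/Esm1 or Gfi1/Neurl3 pair: 43 of the 66 Kitl/Esm1 cells and 39 of the 122 EHT cells also passed the Gja5 minimum and were kept in those groups. Likewise 35 of the 620 macrophages also held Ptprc and Myb. Another 65 cells met other combinations of markers and were left out, and 409 met none. UMIs were summed over the cells of each group, replicate and genotype, and a value below is CPM in such a sum unless another unit is given. The sums held 335289 to 16309362 UMIs. Sums under 10 cells were left out, which leaves 3 venous sums and, for megakaryocytes, the 2 sums of replicate 2.

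Markers that had no part in the grouping were highest in the group they belong to for 6 of the 7 groups. The exception was the Kitl and Esm1 group, where the summed plexus markers (Apln, Plvap, Cd34, Car4 and Gpihbp1) averaged 1774 CPM against 2033 CPM in arterial cells. Of these 5 Plvap was lower there (917 against 1221 CPM), while Apln (21.0 against 0.967 CPM), Gpihbp1 (28.4 against 10.6 CPM), Car4 (1.23 against 0 CPM) and Cd34 (806 against 800 CPM) were higher by value. Its summed arterial markers ran from 1470 to 3135 CPM, overlapping the 2142 to 3285 CPM of the arterial sums, with Tmem100 at 86.8 against 319 CPM and Gja5 at 547 against 1028 CPM. Since these markers did not all go one way, the group is called by its genes, Kitl/Esm1 cells, below. Nupr1, the deleted gene, was at 55.0 and 37.3 CPM in the control EHT sums and at 1.52 and 2.15 CPM in the cKO EHT sums, and it had no UMI in any Kitl/Esm1 or venous sum. The libraries shared 0 cell barcodes. Median depth differed between groups, from 23785 UMIs per arterial cell to 82416 per venous cell. Summed mesenchymal markers (Pdgfra, Prrx1, Twist1, Actc1, Myog, Meox1, Tcf15, Tagln and Pax3) ran from 173 to 339 CPM in the arterial sums and from 99.4 to 284 CPM in the EHT sums.

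Nearly all of the signal came from 12 chains, which held from 85.9% of the members' UMIs in megakaryocytes to 99.2% in Kitl/Esm1 cells. They are the chains whose mean reached 20 CPM in at least 1 group, a rule that leaves 20 members with a highest mean of 1 to 20 CPM, 20 more with a UMI but under 1 CPM in every group, and 3 with no UMI (Col6a5, Col6a6 and Col10a1). The 12 are the type IV chains Col4a1 and Col4a2, the multiplexins Col18a1 and Col15a1, the fibrillar chain Col5a2, the transmembrane chain Col23a1, and the laminin chains Lama3, Lama4, Lama5, Lamb1, Lamb2 and Lamc1. Lamb2, the lowest of them, reached 23.8 CPM, and Col13a1, the next below, 16.8 CPM. By class, the 12 held 2 of 6 type IV chains, both multiplexins, 1 of 11 fibrillar chains, 1 of 4 transmembrane chains and 6 of 11 laminin chains. None of the 9 FACIT chains, which coat collagen fibrils, and none of the 7 beaded-filament chains (Col6a1 to Col6a6 and Col28a1) reached it, and the beaded-filament chains stayed at or below 0.746 CPM. Because reads were taken from the 3′ end and not scaled to gene length, levels are compared between groups for 1 chain and not between chains.

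Col4a1 and Col4a2, the chains that assemble as 2 alpha-1 with 1 alpha-2 in the common form of type IV collagen, lie head to head. In GRCm38 Col4a1 occupies chr8:11198423-11312826 on the minus strand and Col4a2 occupies chr8:11312805-11449287 on the plus strand, so that their annotated first exons overlap by 22 bases. The stretch is shown because the ratio of the 2 chains differed little between the endothelial groups below. RefSeq (GRCm38.p6) gives chr8:11312801-11312830 on the plus strand as follows, with the 22 bases from the start of Col4a2 to the start of Col4a1 in capitals.
Col4a1 and Col4a2 starts: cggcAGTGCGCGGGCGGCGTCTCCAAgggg
The letters GGGCGG, a GC box, stand between the starts. On either strand they were in 26 of the 44 RefSeq promoter windows of 300 bases found for 40 members (59.1%), and in 35.7% of 32851 windows of all genes. CCAAT on either strand was in 14 of the 44 (31.8%) and in 37.4% of all. The Col4a1 and Col4a2 windows each held both.

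Not every chain followed the order of the type IV chains over the groups. Col23a1, for one, averaged 25.7 CPM in venous, 18.2 in arterial and 3.67 in Kitl/Esm1 cells. Col15a1, a multiplexin of the outer basement membrane, also had an unlike order, and its upstream sequence is shown for that contrast. The 250 bases before its RefSeq start lie at chr4:47207762-47208011 on the plus strand, with GGAA on either strand (TTCC when read here), the core letters bound by ETS factors, in capitals.
Col15a1 before its start: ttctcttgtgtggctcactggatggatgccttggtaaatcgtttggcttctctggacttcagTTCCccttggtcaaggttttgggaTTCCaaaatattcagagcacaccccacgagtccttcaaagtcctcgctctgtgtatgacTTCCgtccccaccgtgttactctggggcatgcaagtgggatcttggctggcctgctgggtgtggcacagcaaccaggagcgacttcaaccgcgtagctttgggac
GGAA stands 3 times in these bases. It was in all 44 member windows and in 96.0% of all windows, so its presence sets no member apart. The window of Col15a1 held neither GGGCGG nor CCAAT.

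The vessel groups held far more of these transcripts than the blood groups. All 55 members together made up 3848 ± 327 CPM in arterial cells (SD, n = 4 sums), 4065 ± 1143 in Kitl/Esm1 cells (n = 4), 1431 ± 71.9 in venous cells (n = 3) and 801 ± 303 in EHT cells (n = 4). They were 77.5 ± 66.2 CPM in progenitors (n = 4), 27.0 ± 10.4 in macrophages (n = 4) and 21.9 ± 4.5 in megakaryocytes (n = 2). Of the 32 members that reached 1 CPM in some group, 19 had their highest mean in arterial cells, 7 in Kitl/Esm1 cells, 5 in venous cells and 1, Col11a2, in progenitors. This ranking includes members near the floor. Col11a2 was at 2.27 ± 1.77 CPM in progenitors and at 2.15 ± 2.32 CPM in EHT cells. Col8a1 was highest in Kitl/Esm1 cells on 2 UMIs.

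**Figure D1:**
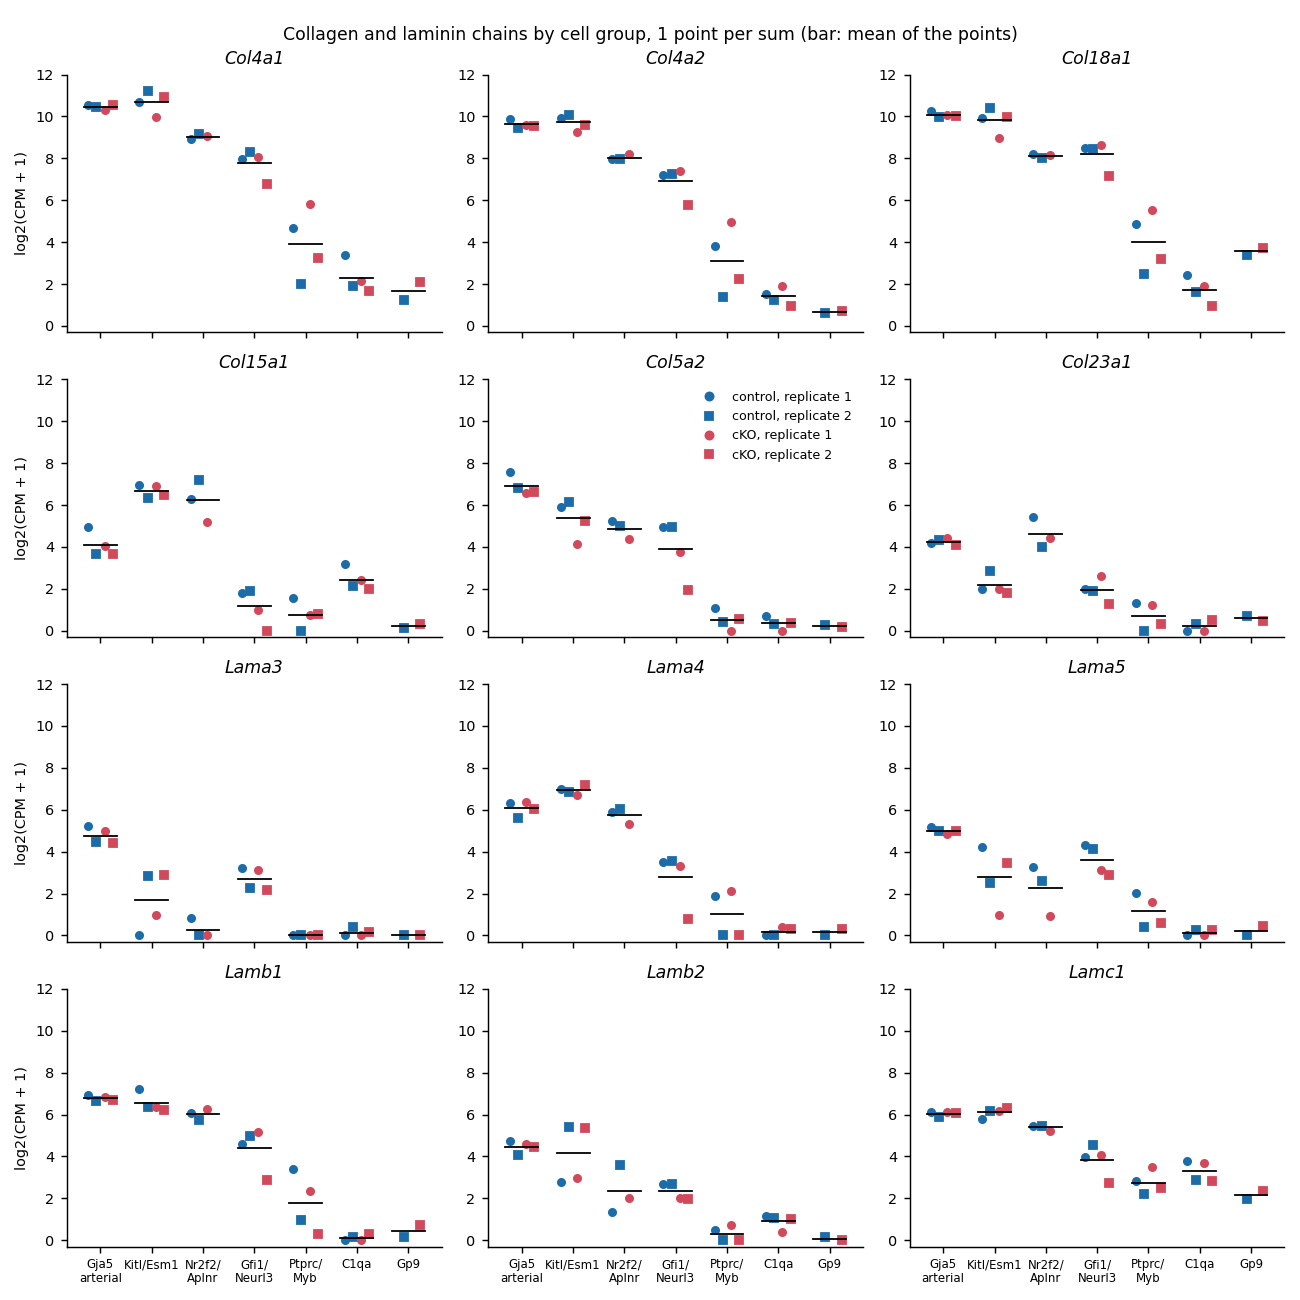
Each panel plots 1 chain as log2(CPM + 1) in the sums of 7 cell groups, with blue for control, red for cKO, circles for replicate 1, squares for replicate 2 and a bar at the mean of the points. Col4a1 lies between 1269 and 1476 CPM in the arterial sums and between 109 and 320 CPM in the EHT sums, and Col15a1 is the chain whose C1qa sums, at 2.94 to 8.23 CPM, all lie above its EHT sums, at 0 to 2.71 CPM.

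Col4a1, Col4a2 and Col18a1 gave close values over the 4 arterial sums. Col4a1 was at 1475 and 1401 CPM in control replicates 1 and 2 and at 1269 and 1476 CPM in cKO replicates 1 and 2. Col4a2 was at 939, 698, 778 and 756 CPM in the same order. Col18a1, whose C-terminal fragment is endostatin, was at 1223, 1004, 1086 and 1027 CPM. For each of the 3 chains the control and cKO values overlapped. Every arterial cell held a Col4a1 UMI, against 12.1% of macrophages (95% exact binomial interval 9.63 to 14.9), a type that is not known for basement membrane. With each cell thinned to 6000 UMIs the shares were 99.3% and 1.79%. Both type IV chains were found together in 99.8% of arterial cells and 1.45% of macrophages.

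Among laminins, arterial cells held 3 alpha chains. Lama4 was at 79.3, 47.6, 81.5 and 65.0 CPM in control 1, control 2, cKO 1 and cKO 2. Lama5 was at 34.9, 30.5, 27.6 and 30.3 CPM, and Lama3, better known from epithelium, at 35.9, 21.0, 30.8 and 20.2 CPM. All 4 sums held each of the 3 chains. The shared partners were Lamb1, at 100 to 123 CPM, Lamb2, at 15.6 to 25.7 CPM, and Lamc1, at 57.9 to 69.1 CPM. A cell with UMIs of Lama4, Lamb1 and Lamc1 together, the chains of laminin 411, made up 44.9% of arterial cells (40.2 to 49.7), and one with Lama5, Lamb1 and Lamc1, the chains of laminin 511, made up 31.6% (27.2 to 36.2). At 6000 UMIs these shares were 9.31% and 4.06%. Without thinning they were 0.161% of macrophages for laminin 511 and 0 of 620 for laminin 411, a count that allows up to 0.484%.

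Kitl/Esm1 cells were compared with arterial cells to see how the chains differ between these 2 kinds of endothelial cell. Lama4 and Col15a1 were higher and Lama3, Lama5, Col23a1 and Col5a2 lower, while the type IV chains, Col18a1, Lamb1, Lamb2 and Lamc1 did not pass the test. Of 14 members tested, 6 passed an adjusted p of 0.05 (edgeR quasi-likelihood test, 4 sums against 4), 42.9% against 9.21% of all 8866 genes tested. The median log2 fold change was −0.16 over the members and −0.00 over all genes. Lama3, Lama5 and Col23a1 passed the filter on counts through the arterial sums, where they are high.

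Col15a1 was at 122, 80.8, 117 and 88.2 CPM in the Kitl/Esm1 sums (control 1, control 2, cKO 1, cKO 2) and at 29.5, 11.7, 15.4 and 11.5 CPM in the arterial sums. The groups did not overlap, and the difference on the log2 scale was 2.63 with an SE of 0.28 (adjusted p = 7.12e-05, edgeR). The SE follows ± after each log2 fold change from here on. Lama4, the alpha chain of endothelial laminin 411, was at 125, 115, 102 and 146 CPM against 79.3, 47.6, 81.5 and 65.0, also without overlap, with a log2 fold change of 0.90 ± 0.19 (adjusted p = 0.00731). Lama5 went the other way, with 17.9, 4.66, 0.984 and 10.1 CPM in Kitl/Esm1 cells, a log2 fold change of −2.14 ± 0.42 (adjusted p = 0.00435). Lama3 was at 0, 6.22, 0.984 and 6.30 CPM there and its log2 fold change was −2.81 ± 0.47 (adjusted p = 0.00155). The value for Lama3 was −1.66 without replicate 1 and −5.31 without replicate 2. Lama3, Lama5 and Col23a1 rest on 10, 18 and 10 UMIs in Kitl/Esm1 cells. Col23a1 had a log2 fold change of −2.25 ± 0.35 (adjusted p = 0.000908) and Col5a2, which joins fibrils of other collagens, of −1.46 ± 0.39 (adjusted p = 0.0419). Without replicate 2 the calls of Lama4 (log2 fold change 0.52, adjusted p = 0.123), Lama5 (−2.47, adjusted p = 0.0913) and Col5a2 (−2.22, adjusted p = 0.192) were lost, and Col5a2 was also lost with the replicate as a block (adjusted p = 0.110), without cells holding mesenchymal markers (0.153), within the stated cell limits (0.0648) and with no filter on low counts (0.112). With control cells alone the call of Col23a1 was lost (−1.76, adjusted p = 0.0831). Grouping by the markers not used above ended the call of Lama4 (0.31, adjusted p = 0.411) and of Lama5 (−1.50, adjusted p = 0.0522), and brought Col23a1 to −1.30 and Col15a1 to 2.03, both still called.

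The type IV chains varied more between the Kitl/Esm1 sums, which hold 10 to 22 cells each. Col4a1 was at 1643, 2376, 1005 and 1933 CPM in the Kitl/Esm1 sums, overlapping the arterial range, with a log2 fold change of 0.37 ± 0.20 (adjusted p = 0.341). Its approximate 95% interval ran from −0.03 to 0.77. Cells of the group that also passed the Gja5 minimum, 16 in replicate 1 and 27 in replicate 2, held Col15a1 at 147 and 75.9 CPM, and those that did not, 16 and 7 cells, held it at 97.5 and 107 CPM. Col18a1 was at 926 and 1483 CPM in the former and at 382 and 342 CPM in the latter.

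Of the 32 genes listed as partners of these chains (modifying enzymes, other basement membrane parts, proteases and their inhibitors, receptors), 25 were tested in this comparison, 6 were higher and 3 lower. The 5 with the largest change were Bcam, a laminin alpha-5 receptor (log2 fold change −3.20 ± 0.47, adjusted p = 0.000615), the protease inhibitor Timp2 (−2.87 ± 0.25), nidogen Nid2 (1.84 ± 0.21), the protease Mmp2 (−1.78 ± 0.17) and the collagen-binding integrin chain Itga1 (1.18 ± 0.27, adjusted p = 0.0107).

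As a share of all UMIs, venous cells held less of most chains than arterial cells but more Col15a1. Median depth was 82416 UMIs per venous and 23785 per arterial cell. Fewer transcripts per cell and a larger total of other RNA cannot be told apart on the CPM scale. A Lamb1 UMI was found in 95.7% of venous and 83.9% of arterial cells, and in 30.4% and 47.5% at 6000 UMIs. Of 21 members tested 13 passed, 1 higher and 12 lower (61.9%, against 29.9% of 10187 genes, edgeR, 3 sums against 4), with a median log2 fold change of −1.48 over the members and −0.03 over all genes. Members with few venous UMIs, such as Col9a2 and Lamc3 (0), Lama3 (1) and Col4a5 (6), passed the filter on counts through the arterial sums and could only come out lower. Col4a1 was at 480 and 572 CPM in control replicates 1 and 2 and at 528 CPM in cKO replicate 1, below every arterial sum, a log2 fold change of −1.33 ± 0.13 (adjusted p = 1.67e-05). Col4a2 was lower by a like amount (−1.50 ± 0.14, adjusted p = 1.20e-05) and Col18a1 by more (−1.87 ± 0.13, adjusted p = 9.34e-07). Every venous cell held a Col4a1 UMI, and 89.9% did at 6000 UMIs. Among the laminins, Lamb1 (−0.65 ± 0.16, adjusted p = 0.00837) and Lamc1 (−0.61 ± 0.16, adjusted p = 0.0136) were lower by less. Lama4 was at 58.8, 64.7 and 38.8 CPM and its difference of −0.29 ± 0.23 did not pass (adjusted p = 0.366).

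Lama3 was close to absent from venous cells and Lama5 was low, unlike Lama4. Lama3 had 1 UMI in the 3 venous sums and 293 in the arterial sums, a ratio of arterial to venous level with a 95% counting interval of 25.5 to 5668. Of 4 epithelial markers, Krt18 was also low in the venous sums (0.308 to 1.24 CPM) and the Kitl/Esm1 sums (0 to 2.52 CPM). It did not follow Lama3 in the other groups. Krt18 was at 52.2 to 80.2 CPM in the arterial sums and higher, at 112 to 128 CPM, in the EHT sums. Lama3 averaged 27.0 CPM in arterial and 5.84 CPM in EHT cells. In progenitors Krt18 averaged 40.8 CPM and Lama3 had 0 UMIs. The defining markers Epcam and Cdh1 averaged 0.451 and 0.0888 CPM in arterial cells and 2.21 and 0 CPM in EHT cells, and Krt8 5.34 and 1.67 CPM. The part of cells with these markers in Lama3 was not tested. Lama5 was at 8.51, 4.97 and 0.925 CPM, a log2 fold change of −2.98 ± 0.45 (adjusted p = 0.000398). Lamc3, a laminin gamma chain, and Col9a2, a FACIT chain, had no UMI in the venous sums and 67 and 69 in the arterial sums, so that they were at least 10.9-fold and 11.2-fold higher in arterial cells against a floor of 3 UMIs over the venous sums. These sizes hold for this grouping: with cells grouped by the other markers the log2 fold change was −1.57 for Col9a2, −2.19 for Lama3 and −1.64 for Lama5, each still called. Lamb2 (−2.28 ± 0.43), Col4a5 (−3.54 ± 0.58) and Col5a2 (−2.05 ± 0.31) were also lower, with adjusted p of 0.00173, 0.000676 and 0.000500. Col15a1 was at 77.3, 145 and 35.4 CPM in control 1, control 2 and cKO 1, each above the arterial maximum of 29.5 CPM, a log2 fold change of 2.33 ± 0.51 (adjusted p = 0.00931). Its call was lost without replicate 2 (1.28, adjusted p = 0.191) and with the replicate as a block (2.26, adjusted p = 0.0728), and that of Col5a2 without replicate 2 (adjusted p = 0.0839). Without replicate 1, which leaves 1 venous sum taken to vary like the arterial ones, the calls of Lamb2 (−0.61, adjusted p = 0.406) and Lamc1 (−0.42, adjusted p = 0.262) were lost, Col15a1 was at 3.74 and Col4a5 at −7.48. Grouping by the other markers ended the calls of Col4a5 (−0.87, adjusted p = 0.226), Lamb1 (−0.29, adjusted p = 0.181) and Lamc1 (−0.36, adjusted p = 0.103). Lamc1 was also lost with control cells alone (0.347), Lamb1 on thinning (0.121), and Col15a1 on thinning (0.238) and with no filter on low counts (0.0548). Of 27 partner genes tested, 3 were higher and 16 lower. The 5 with the largest change were all lower, namely Bcam (−4.44 ± 0.48), the laminin-binding integrin chain Itgb4 (−2.60 ± 0.58), Timp2 (−2.54 ± 0.34), agrin (Agrn, −1.72 ± 0.20) and the collagen lysyl hydroxylase Plod1 (−1.56 ± 0.22).

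**Figure D2:**
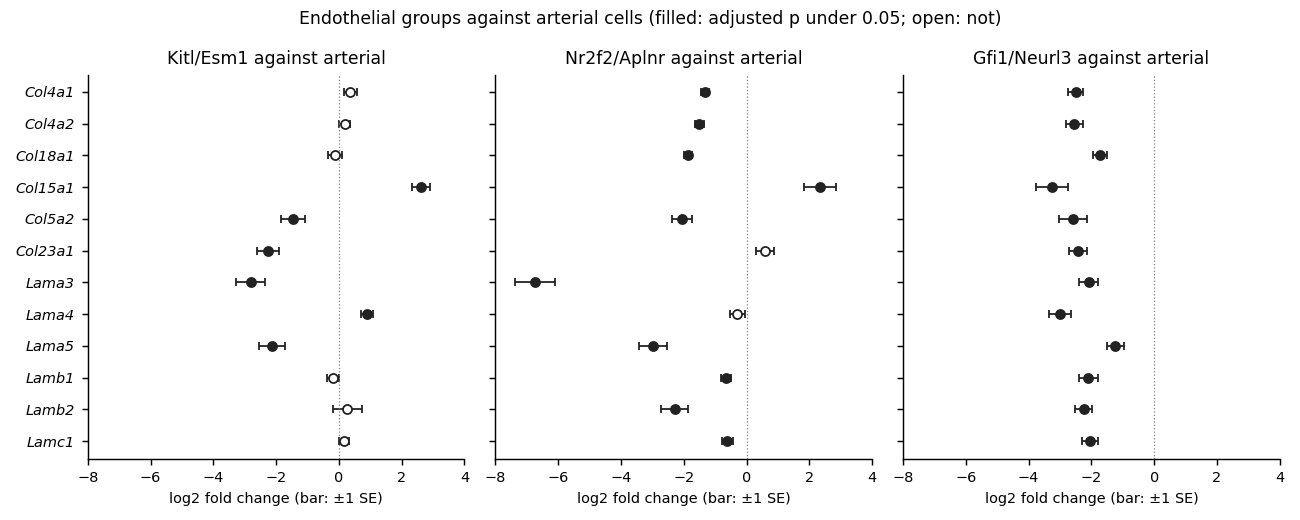
The 3 panels plot the log2 fold change against arterial cells (edgeR) of the 12 chains with bars of 1 SE, filled where the adjusted p was under 0.05. All 12 lie left of 0 in Gfi1/Neurl3 (EHT) cells, while Col15a1 lies right of 0 in the other panels, and the fitted venous value of Lama3 rests on 1 UMI.

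EHT cells were compared with arterial cells, the endothelium they bud from. Of 15 members tested 14 were lower and none higher (93.3%, against 38.8% of 9509 genes, edgeR, 4 sums against 4), and the median log2 fold change was −2.24 over the members and −0.01 over all genes. Members with few EHT UMIs, such as Col9a2 (12), Col15a1 (12) and Col4a5 (14), passed the filter on counts through the arterial sums, where they are high. The one that did not pass was Col26a1 (−0.65 ± 0.35, adjusted p = 0.163). Fewer transcripts per cell and a larger total of other RNA cannot be told apart on the CPM scale.

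Col4a1 was at 252 and 320 CPM in the control EHT sums and at 269 and 109 CPM in the cKO EHT sums, a log2 fold change of −2.50 ± 0.24 from the arterial level (adjusted p = 2.26e-05). Col4a2 was at 146, 153, 167 and 53.6 CPM in control 1, control 2, cKO 1 and cKO 2 (−2.54 ± 0.26, adjusted p = 2.88e-05). Col18a1 was at 362, 352, 399 and 144 CPM, and its log2 fold change of −1.72 ± 0.23 (adjusted p = 0.000124) was the smaller one. All 3 were below the arterial range in every EHT sum. Of the 6 laminin chains named above, Lama4 had the largest difference, at 10.4, 10.8, 9.11 and 0.715 CPM (−3.00 ± 0.35, adjusted p = 5.50e-05), and Lama5 the smallest, at 18.8, 16.2, 7.59 and 6.44 CPM (−1.23 ± 0.28, adjusted p = 0.00361). Lamb1 (−2.10 ± 0.30), Lamc1 (−2.04 ± 0.26), Lamb2 (−2.24 ± 0.28) and Lama3 (−2.08 ± 0.30) lay between. Col15a1 was at 2.48, 2.71, 1.01 and 0 CPM (−3.26 ± 0.51, adjusted p = 0.000342). The calls of Col4a1 (adjusted p = 0.0531), Col5a2 (0.0922) and Col9a2 (0.207) were lost without replicate 1, and that of Col5a2 also without replicate 2 (0.117). With control cells alone those of Lama5 (0.0896) and Col9a2 (0.182) were lost.

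The low sum of cKO replicate 2 comes from 20 cells, and it was the lowest of the 4 EHT sums for each of the 12 chains. In that sum Cdh5 was at 171 CPM against 350 to 470 CPM in the other 3 EHT sums, and 4 of its 20 cells passed the Gja5 minimum (20.0%, 5.73 to 43.7) against 31.4 to 40.6% in the others. The part of this in the low chain levels was not tested.

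Most EHT cells still held type IV collagen transcripts. A Col4a1 UMI was found in 95.1% of them (89.6 to 98.2) and in 63.1% at 6000 UMIs, against 100% and 99.3% of arterial cells. Both type IV chains were found in 87.7% of EHT cells (80.5 to 93.0), and in 36.9% at 6000 UMIs. The chains of laminin 411 were found together in 12.3% of EHT cells, but in none once thinned, so that share is at the limit of this depth.

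Of 26 partner genes tested 22 were lower in EHT cells and none higher. The 5 with the largest change were Nid2 (−3.75 ± 0.34), the protease inhibitor Timp1 (−3.58 ± 0.46), Nid1 (−2.70 ± 0.24), the collagen-binding protein Sparc (−2.56 ± 0.42) and the collagen-binding integrin chain Itga2 (−2.36 ± 0.34), with adjusted p of at most 0.00125. Sparc was at 2389 ± 517 CPM in arterial and 387 ± 262 CPM in EHT cells (SD, n = 4 each).

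The EHT cells were then divided by Gja5, and the cells that carried both the EHT and the progenitor markers were set between them and the progenitors. Values are for both genotypes together, in replicates 1 and 2. Col4a1 was at 1387 and 1439 CPM in arterial cells, 475 and 592 in EHT cells with Gja5 (22 and 17 cells), 154 and 94.5 in EHT cells without it (48 and 35 cells), 136 and 122 in cells with both marker pairs (26 and 17 cells) and 35.6 and 6.16 in progenitors (59 and 80 cells). Both replicates were lower at the first, second and last of these 4 steps, and at the third replicate 1 was lower and replicate 2 higher. Cdh5 went from 1071 and 1062 CPM through 565 and 752, 269 and 189, and 214 and 176 to 36.1 and 6.72 CPM over the same cells. Lama4 was at 80.2 and 56.5 CPM in arterial cells and at 17.4 and 20.5 in EHT cells with Gja5, while Lama5 was at 31.8 and 30.4 and then at 19.0 and 21.7. Lama5 was still at 10.5 and 8.44 CPM in EHT cells without Gja5, where Lama4 was at 5.98 and 1.27. Since Gja5 divides the EHT cells at the second step and the other markers divide the rest, these values are a description without a test.

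**Figure D3:**
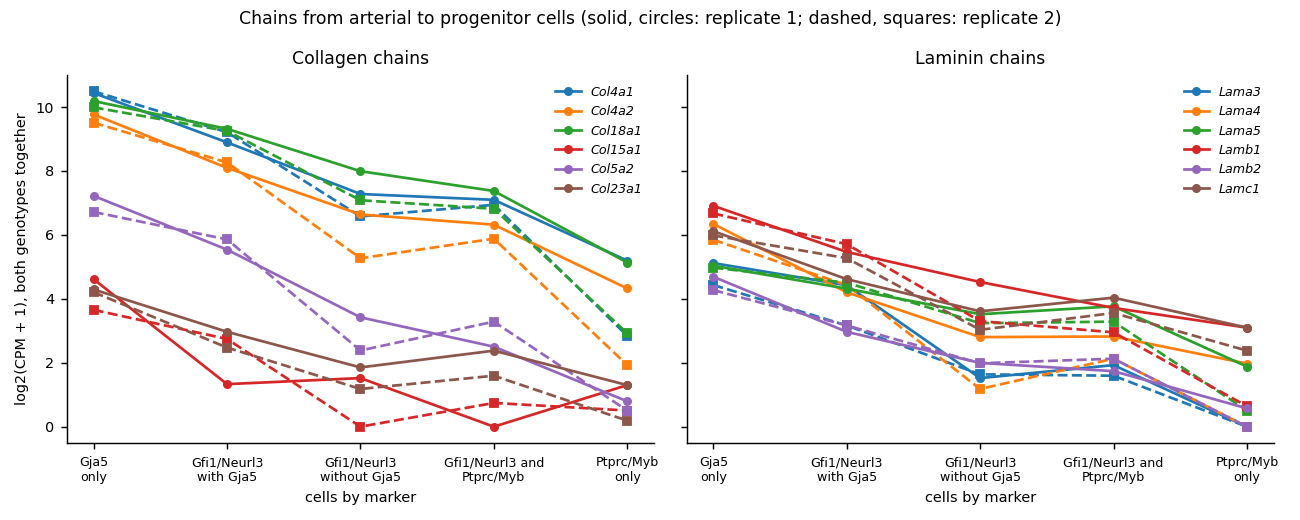
The plot follows log2(CPM + 1) of 6 collagen chains (left) and 6 laminin chains (right) over 5 sets of cells from arterial to progenitor, both genotypes together, with solid lines and circles for replicate 1 and dashed lines and squares for replicate 2. Every chain is lower in EHT cells with Gja5 than in arterial cells in both replicates, and Col4a1 goes from 1387 and 1439 CPM to 35.6 and 6.16 CPM.

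Progenitors were compared with EHT cells. Whether these Ptprc/Myb cells descend from the EHT cells was not tested. The paper set aside a cluster with the myeloid progenitor genes Mpo and Fcgr3, and these genes did not define the groups here. Only 6 members had counts enough to test, and all 6 were lower (100%, against 22.3% of 8973 genes, edgeR, 4 sums against 4). Col18a1 had a log2 fold change of −3.92 ± 0.66 (adjusted p = 0.00358), Col4a2 of −3.59 ± 0.72 (0.00820), Col4a1 of −3.45 ± 0.76 (0.0139), Lama5 of −3.14 ± 0.58 (0.00230), Lamb1 of −2.76 ± 0.77 (0.0306) and Lamc1 of −1.31 ± 0.40 (0.0337). Without replicate 1 the calls of Col4a1 (adjusted p = 0.0725) and Lamc1 (0.114) were lost, and without replicate 2 that of Lamc1 (0.0866), which was also lost without cells holding mesenchymal markers (0.0844), and Lamb1 was lost with no filter on low counts (0.0877). The values moved with the replicates left in, for Lamb1 from −4.92 without replicate 1 to −1.88 without replicate 2, and for Col4a1 from −5.10 to −2.71. Members tested here had to pass the filter on counts through the EHT sums.

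The progenitor sums differed by replicate more than by genotype. Col4a1 was at 24.8 and 54.9 CPM in control and cKO of replicate 1 and at 2.96 and 8.54 CPM in those of replicate 2, and Col18a1 at 27.8 and 45.4 against 4.61 and 8.05 CPM. Cdh5 differed alongside, and the ratio of Col4a1 to Col4a2 UMIs in progenitors, 1.94 (1.51 to 2.50), included that of arterial cells, 1.78 (1.73 to 1.83). How much of the progenitor signal was free RNA of endothelial cells was not tested. Of 18 partner genes tested 1 was higher, the prolyl hydroxylase P4ha1, and 13 were lower, led by Sparc (−4.82 ± 0.65), perlecan (Hspg2, −4.21 ± 0.51), the protease Mmp14 (−4.04 ± 0.61), the collagen chaperone Serpinh1 (−3.80 ± 0.45) and Nid1 (−3.56 ± 0.56).

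Macrophages held another mixture of chains. Of 3 members tested against progenitors, Col18a1 (−3.21 ± 0.70, adjusted p = 0.00521) and Col4a1 (−2.48 ± 0.78, adjusted p = 0.0388) were lower and Lamc1 did not pass (0.66 ± 0.33, adjusted p = 0.164), 66.7% called against 29.2% of 9431 genes (edgeR, 4 sums against 4). Both calls were lost with control cells alone (adjusted p = 0.608 for Col4a1 and 0.0880 for Col18a1), and when cells were grouped by the other markers Col4a1 turned to 0.48 and Col18a1 lost its call (−1.24, adjusted p = 0.209). Col4a1 also lost its call with no filter on low counts (0.116), and without replicate 1 the values were −1.16 for Col4a1 and −2.01 for Col18a1. Lamc1 was at 12.7, 6.43, 11.9 and 6.07 CPM in control 1, control 2, cKO 1 and cKO 2 of the macrophages, with 257 UMIs in all and in 31.8% of cells (28.1 to 35.6). Its usual partner Lamb1 had 6 UMIs and Lama4 5 UMIs in the same cells. Col15a1 was at 8.23, 3.34, 4.38 and 2.94 CPM, with 127 UMIs, and Lamb2 had 37. At 6000 UMIs the shares of macrophages with a Lamc1 or Col15a1 UMI were 2.60% and 1.46%, near the level of 1 UMI per cell.

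These proportions were unlike those of the endothelial groups. Macrophages held 2.45 Lamc1 UMIs per Col4a1 UMI (95% counting interval 1.94 to 3.10), against 0.0461 (0.0427 to 0.0497) in arterial cells, and 0.0233 Lamb1 UMIs per Lamc1 UMI (0.00849 to 0.0515) against 1.68 (1.53 to 1.85). They held 1.21 Col15a1 UMIs per Col4a1 UMI (0.927 to 1.58), against 0.0121 (0.0105 to 0.0140). Of 14 partner genes tested against progenitors 8 were higher in macrophages and 1 lower. The 5 with the largest change were Timp2 (2.82 ± 0.56), Nid2 (2.39 ± 0.47), Plod1 (2.17 ± 0.19), Sparc (1.77 ± 0.59, adjusted p = 0.0489) and Serpinh1 (1.55 ± 0.36).

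Megakaryocytes held more Col18a1 than Col4a1 UMIs, the reverse of arterial cells. So did EHT cells (2371 against 1782 UMIs), and progenitors held near equal numbers (187 and 190 UMIs). In megakaryocytes the values were as follows. Col18a1 was at 9.57 and 12.2 CPM in the control and cKO sums of replicate 2, and 44.7% of the 215 cells held a UMI (37.9 to 51.6), against 7.74% of macrophages (5.76 to 10.1) at a median of 81795 and 57216 UMIs per cell. At 6000 UMIs the shares were 7.91% and 1.14%. The ratio of Col18a1 to Col4a1 UMIs was 4.84 (3.40 to 7.06) in megakaryocytes and 0.768 (0.750 to 0.786) in arterial cells. Of 5 members tested against progenitors (2 sums against 4) 1 passed, Col4a2 (−3.95 ± 1.19, adjusted p = 0.0317), 20.0% against 40.7% of 10176 genes (edgeR). Both megakaryocyte sums are of replicate 2, so cell type and replicate are partly mixed here. In progenitors Col4a2 was at 13.0 and 29.8 CPM in replicate 1 and at 1.64 and 3.66 CPM in replicate 2. With 10 megakaryocyte UMIs, Col4a2 passed the filter on counts through the progenitor sums. Its call was lost with stricter markers (−1.67, adjusted p = 0.247) and with no filter on low counts (0.119), its value was −2.08 with the replicate as a block, and its direction turned when cells were grouped by the other markers (0.83, adjusted p = 0.423). Col18a1 did not differ past the test (−0.67 ± 0.77, adjusted p = 0.527). Of 22 partner genes 5 were higher and 6 lower, and the 5 with the largest change were Timp3 (5.84 ± 0.87), Mmp14 (−4.22 ± 1.09, from 2 UMIs), Itga2 (3.28 ± 0.54), Itgb4 (3.01 ± 0.49) and Mmp2 (−2.79 ± 0.71).

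Ratios between chains were set against those of arterial cells, sum by sum, in 28 two-sided exact permutation tests of the mean log2 ratio of UMIs with 0.5 added to each count. These 7 ratios were chosen after the levels were seen. The ratio of Col4a1 to Col4a2 stayed near the arterial value in the endothelial groups, from 1.78 in arterial to 1.81 in EHT, 1.90 in venous and 2.04 in Kitl/Esm1 cells, and its smallest p was 0.343. The ratio of Lama4 to Lama5 was 2.18 in arterial cells (1.91 to 2.49), 18.7 in Kitl/Esm1 cells (11.6 to 31.9), 14.1 in venous cells (8.75 to 24.2) and 0.652 in EHT cells (0.463 to 0.913). The sums of each of these groups did not overlap the arterial sums. In the permutation tests p was 0.0286 with 4 sums against 4 and 0.0571 with 3 against 4. These are the smallest values possible when sums are permuted without pairing. The sums of different groups come from the same pools, and the permutations did not use that pairing. The ratio of Col18a1 to Col4a1 was 0.768 in arterial, 0.538 in Kitl/Esm1, 0.544 in venous and 1.33 in EHT cells, with the same smallest p in each. In all 15 of the 28 tests gave the smallest possible p, and none passed 0.05 after Benjamini-Hochberg adjustment over the 28 (0.0727 for 4 against 4).

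**Figure D4:**
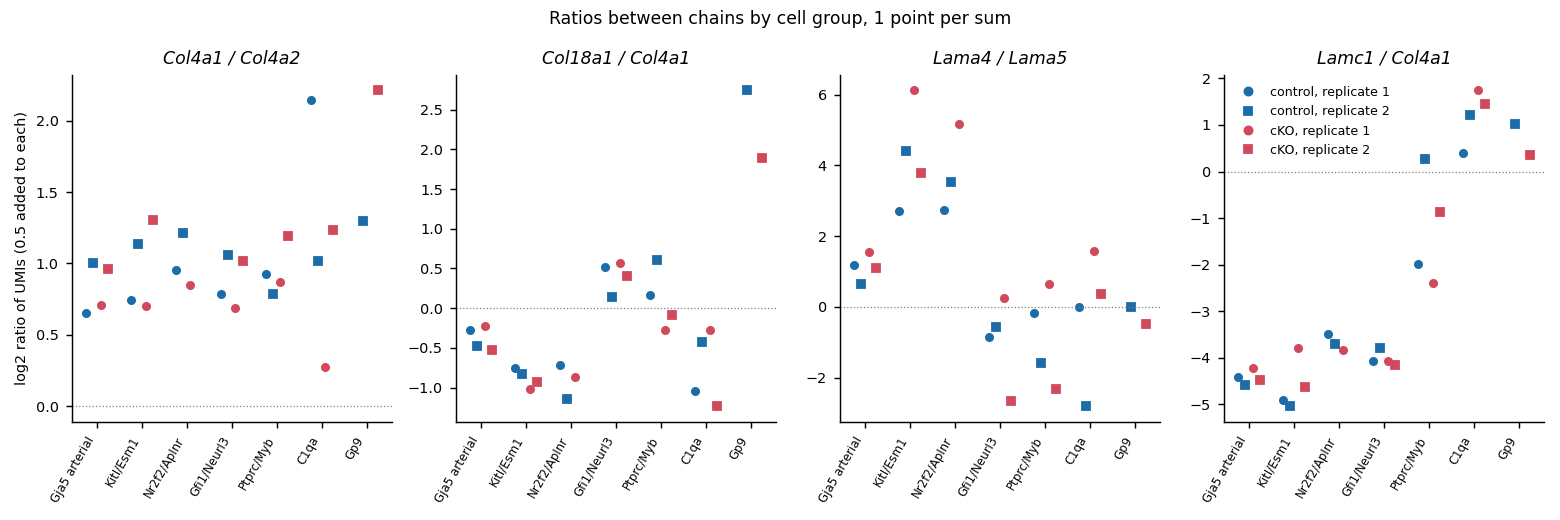
Each panel plots the log2 ratio of the UMIs of 2 chains in each sum, with 0.5 added to both counts, by cell group, colour for genotype and shape for replicate. Col4a1 to Col4a2 stays close to 1 on this scale in the first 4 groups, Lama4 to Lama5 is above every arterial sum in the Kitl/Esm1 and venous sums and below it in the EHT sums, and Lamc1 to Col4a1 is above 0 in all C1qa and Gp9 sums.

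Deletion of Nupr1 was compared with control in 5 groups, with 2 sums against 2. No member passed the test in any of them (edgeR). In arterial cells 0 of 22 members passed, against 0% of 10184 genes, and in Kitl/Esm1 cells 0 of 9, against 0.0737% of 6788. In EHT cells 0 of 11 passed, against 0.022% of 9107, in progenitors 0 of 5, against 0.0107% of 9378, and in macrophages 0 of 6, against 0% of 10663. Members with an unadjusted p under 0.05 numbered 1 in arterial, 1 in Kitl/Esm1, 2 in EHT cells and 0 in both blood groups, and DESeq2 called none. In arterial cells the log2 fold change was −0.05 ± 0.23 for Col4a1, −0.08 ± 0.24 for Col4a2 and −0.06 ± 0.23 for Col18a1. In EHT cells all 11 tested members were lower in cKO by value, with a median of −0.74 over them and 0.02 over all genes, and the low cKO sum of replicate 2 enters each of these values.

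Col5a2, the type V collagen chain, had the smallest unadjusted p of the members in each of the 3 endothelial groups tested. In arterial cells it was at 189 and 112 CPM in control and at 93.3 and 96.4 CPM in cKO, a log2 fold change of −0.65 ± 0.27 (unadjusted p = 0.0380, adjusted p = 1.00, edgeR). In Kitl/Esm1 cells it was at 59.7 and 69.9 CPM in control and at 16.7 and 36.5 CPM in cKO (−1.30 ± 0.42, unadjusted p = 0.0109, adjusted p = 0.893). In EHT cells it was at 30.2 and 30.3 CPM in control and at 12.6 and 2.86 CPM in cKO (−1.86 ± 0.52, unadjusted p = 0.00295, adjusted p = 1.00). In venous cells, which had too few cKO cells for a test, it was at 36.3 and 31.1 CPM in control and at 20.0 CPM in cKO replicate 1. Both cKO sums were below both control sums in each group tested, a separation that 2 sums against 2 can easily give by chance. Other members separated too. In arterial cells these were Col1a2, Lama5 and Lamc3 (lower in cKO) and Col26a1 and Lamb3 (higher). In Kitl/Esm1 cells they were Col4a2 and Lamb1 (lower) and Lamc1 (higher). In EHT cells Col26a1, Lama4, Lama5 and Lamb2 were lower in the same way. The share of all genes that separate is not given here. With the replicate as a block the log2 fold change was −0.61 in arterial, −1.27 in Kitl/Esm1 and −1.94 in EHT cells. The lowest adjusted p of these 3 fits was 0.306, in Kitl/Esm1 cells (edgeR). The groups are cells of the same pools of embryos, so they are not independent of each other.

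Leaving out 1 sum at a time moved these values, where the lone sum of a genotype was taken to vary like the 2 sums of the other. Without cKO replicate 1 the EHT difference was −3.30 (adjusted p = 0.000949) and without cKO replicate 2 it was −1.27 (adjusted p = 1.00). In Kitl/Esm1 cells it was −1.95 (adjusted p = 0.0119) without cKO replicate 2 and −0.83 (adjusted p = 0.999) without cKO replicate 1. In arterial cells it was −0.25 without control replicate 1. Without the cells holding 3 or more mesenchymal markers it was −0.72 in arterial cells (adjusted p = 1.00), −2.23 in EHT cells (adjusted p = 1.00) and −1.76 in Kitl/Esm1 cells (adjusted p = 0.0323). The last value has 2 cKO sums against 1 control sum, since control replicate 1 then fell under 10 cells, and without that sum alone it was −1.40 (adjusted p = 0.390). With no filter on low counts the EHT adjusted p was 0.0499. A Col5a2 UMI was found in 89.2 and 83.8% of control and in 75.0 and 68.8% of cKO arterial cells, and at 6000 UMIs in 52.8, 46.5, 37.5 and 42.2%. Macrophages, which should lack it, held one in 1.45% of cells and in 0% at 6000 UMIs.

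**Figure D5:**
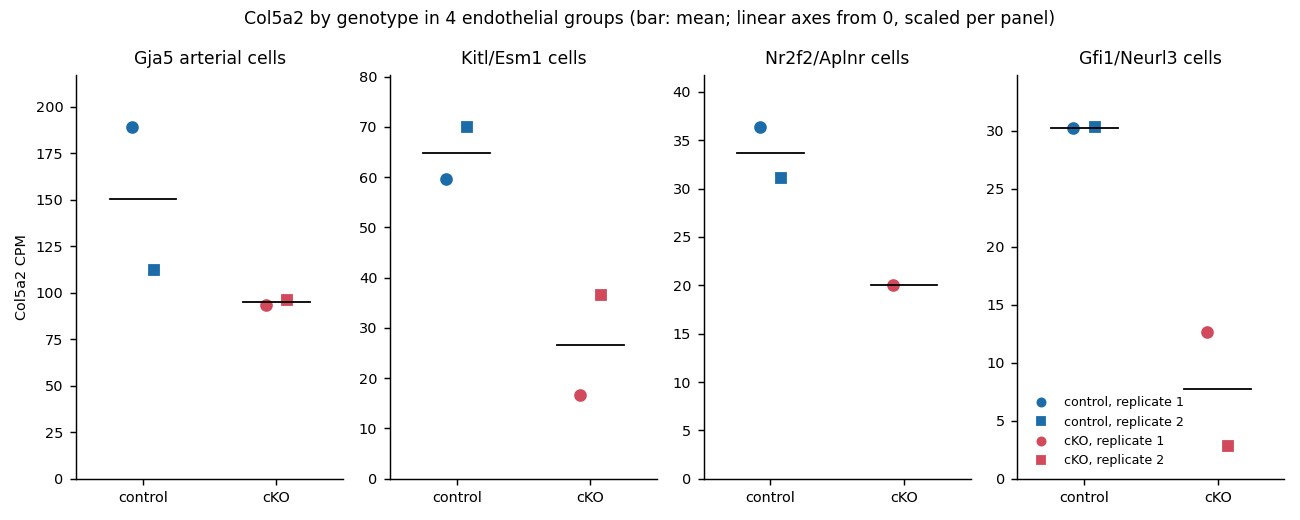
Col5a2 CPM (linear axes from 0, scaled per panel) in the control and cKO sums of 4 endothelial groups, with circles for replicate 1, squares for replicate 2 and a bar at the mean. The cKO sums lie below the control sums in every panel, from 93.3 and 96.4 against 112 and 189 CPM in arterial cells to 2.86 and 12.6 against 30.2 and 30.3 CPM in EHT cells. With so few sums such a separation can easily arise by chance. The differences in arterial, Kitl/Esm1 and EHT cells did not pass the adjusted test, and the venous one, with cKO replicate 1 only, was not tested.

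Whether the effect of the deletion differed between EHT and arterial cells was tested as an interaction over 10195 genes. None of the 18 members in that fit passed (smallest adjusted p = 1.00, 1 member at an unadjusted p under 0.05), and neither did any other gene. The 32 partner genes gave no call between genotypes in any of the 5 groups, with 18 to 27 of them tested.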

How the data were processed

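Counts of UMIs per gene and cell were deposited by the authors, who used Cell Ranger 5.0.1 on mm10 (submitters' processing notes), assigned genotypes from hashtags with Seurat and stated limits of over 1800 genes, over 6000 UMIs and under 5% mitochondrial UMIs per cell. Replicate 1 held 334 control and 344 cKO cells and replicate 2 held 748 and 713, with medians of 38416.5 to 62116 UMIs, and 101 cells, all of replicate 1, lay outside those limits and were kept, while 31 were too shallow to thin. Deposited cells were hashtag singlets, and no doublet caller was run. The members and lists were chosen with earlier results of these data known. Marker minimums (2 UMIs of each gene of a pair, 100 CPM for Gja5, C1qa and Gp9) were set after seeing the distributions of the markers, not of the members. UMIs were summed per group, replicate and hashtag over at least 10 cells and tested with the quasi-likelihood test of edgeR 4.0.16 (TMM, filterByExpr, robust), with Benjamini-Hochberg adjustment over all genes tested, at 0.05. The fits were tested on simulated data with 200 changed genes. The simulated sums varied independently and the changed genes were over 20 CPM, so paired sums and low chains were not covered. Alternatives were DESeq2 1.42.0, RLE scaling, no low-count filter, the replicate as a block, the stated cell limits, stricter or other markers, thinning, control cells alone, leaving out replicates or single sums, and leaving out cells with mesenchymal markers. Both genotypes of a replicate shared a droplet lane, and their deviations from group means correlated across genes (r = 0.325 to 0.774). Replicate numbers thus pair the sums. The main tests did not use this pairing, and the fits with the replicate as a block did. P-values measure the spread between sums of 2 pools, which may be technical, and intervals cover counting error only. Gene positions come from GENCODE M21. Named were members reaching a mean of 20 CPM in a group, any called between genotypes, and the 5 of 32 partner genes with the largest change among those called.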

Additional observations from a re-analysis of the deposited data

Results flagged for a closer look

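Lamb1, the beta-1 chain of most endothelial laminins, was at 146 CPM in control replicate 1 of the Kitl/Esm1 cells, apart from the other 3 sums of that group, which lay at 74.4, 81.7 and 82.4 CPM. That sum holds 10 cells and 49 Lamb1 UMIs, the fewest cells of any sum used. Sets of 4 sums were examined in this way 25 times and 1 stood apart. About 1 such set in 20 is expected to do so by chance.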

How the results depend on the processing

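Of 131 recomputed counts of called members 108 stayed within 1.5 times the reported count, and of 479 recomputed log2 fold changes 438 kept their direction and their call, 39 kept the direction but lost the call and 2 changed sign. Thinning cells to 6000 UMIs left fewer members to test and gave 3 calls for Kitl/Esm1 against arterial, 8 for venous, 8 for EHT, 3 for progenitors against EHT and 0 for macrophages against progenitors. Without the low-count filter there were 10 calls for Kitl/Esm1 against arterial, 13 for progenitors, 8 for macrophages, 2 for megakaryocytes and 1 between genotypes in EHT cells. DESeq2, which had no such filter, gave 11 for progenitors, 7 for macrophages and 4 for megakaryocytes. Grouping by the other markers gave 13 for progenitors and turned the log2 fold change against progenitors to 0.48 for Col4a1 in macrophages and to 0.83 for Col4a2 in megakaryocytes. With control cells alone the counts were 10 for progenitors, 0 for macrophages and 3 for megakaryocytes. For megakaryocytes stricter markers gave 0 and the replicate block 2. The block also ended the calls of Col5a2 in Kitl/Esm1 cells and Col15a1 in venous cells, and ended no other call. Without cells holding mesenchymal markers 1 member, Col5a2, was called between genotypes in Kitl/Esm1 cells, where 1 control sum then fell under 10 cells, so that 2 cKO sums stood against 1. Leaving out 1 replicate or sum gave 3 to 4 calls for macrophages against progenitors, 0 to 1 between genotypes in Kitl/Esm1 cells and 0 to 1 in EHT cells, Col5a2 in both. Venous cells without replicate 1, megakaryocytes with control cells alone and the genotype with a sum left out had 1 sum, taken to vary like the group compared with it, and megakaryocytes had no sum without replicate 2. Beyond the members that thinning and the filter took out or let in, the cause of these shifts was not tested. Depth limits the shares of cells with a UMI most, and 78 of 84 moved on thinning.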

Other observations

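Transcripts of Col1a1 (529 of 539 UMIs), Col1a2 (539 of 643) and Col3a1 (825 of 958) lay mostly in the 409 cells that met no group's markers, unlike those of the fibrillar chain Col5a2 (233 of 2089). Of the 409 cells that met no group's markers, 28 held UMIs of 3 or more mesenchymal markers. These 28 cells held Col3a1 at 496 CPM, Col1a1 at 351 CPM and Col1a2 at 336 CPM, the chains of the type III and type I collagens of connective tissue. Col1a1 had 522 UMIs there, of 539 in all 2139 cells, and Col3a1 737 of 958. Col4a1 was at 347 CPM and Col4a2 at 166 CPM in the same cells. In the other 381 cells without a group Col4a1 was at 95.1 CPM and Col18a1 at 68.3 CPM. Among arterial cells, the 40 with 3 or more mesenchymal markers held Col3a1 at 12.8 CPM and Col5a2 at 192 CPM, against 6.65 and 117 CPM in the other 394, and Col4a1 at 1324 and 1425 CPM.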
